A study of Mus musculus with 4 samples.

Results

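Osteoblast lineage cells, immature and mature, were examined among sorted tdTom+ cells of the mouse vertebral column by droplet-based 3′ single-cell RNA-sequencing. Of 2172 barcodes in 4 libraries, 1757 passed the filters of over 750 unique molecular identifiers (UMIs, which count captured RNA molecules), over 500 genes and a mitochondrial share under 7%, and 54 of these were osteoblast lineage cells. The cells were chosen by their raw counts, and each had at least 1 UMI of Runx2, at most 2 of Acan, fewer than 10 of Cxcl12, none of Ptprc or Cdh5, and either 3 or more of Slit2, Tnc and Postn together or 100 or more of Col1a1. A cell was called mature at 50 or more UMIs of Bglap and Bglap2 together (25 cells) and immature otherwise (29 cells). These counts chose the cells, so the levels of these 11 genes are given as a description, as are those of Bglap3, a near copy of Bglap. No barcode was shared between libraries.

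The study asked how loss of Nf1 in Prss56-expressing boundary cap cells and their descendants alters the spine, and each library held 1 genotype at 1 age. Control mice were Prss56Cre/+;R26tdTom/tdTom;Nf1+/+ and mutant mice were Prss56Cre/Cre;R26tdTom/tdTom;Nf1fl/fl, each at 3 months and at 12-16 months, so every group carried Cre from the Prss56 locus and the tdTom reporter. The number of Cre alleles and the Nf1 genotype cannot be told apart. Cells came from the vertebrae that visibly held tdTom, were freed with collagenase and dispase, and were sorted for tdTom after CD11b+, CD31+, CD45+ and dead cells had been discarded. The number of mice behind each library is not given in the sources used here. Wherever 4 values follow each other, those of the 3-month libraries come before those of the 12-16-month libraries, with the control before the mutant at each age. The libraries held 9429264, 7287981, 2154537 and 4398951 UMIs in passing cells. The lineage cells held 500431, 38225, 466467 and 337534 of these, so the 3-month mutant library, with 3 lineage cells, gave the least precise values. Y-linked UMIs in passing cells came to 210, 5, 122 and 216 beside 767, 1326, 696 and 858 counts per 1000000 UMIs (CPM) of Xist, so 3 libraries held cells of both sexes and the 3-month mutant library held next to no Y-linked RNA.

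Osteoblasts arise from mesenchymal progenitors under the transcription factors Runx2 and Sp7 and lay down type I collagen, which then mineralizes. Early cells of the lineage express remodelling and adhesion genes such as Mmp13, Tnc and Postn, and late cells secrete osteocalcin (Bglap) and may become osteocytes inside the bone. Loss of Nf1, whose product neurofibromin restrains RAS, is known for skeletal defects.

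The promoters of 3 genes that mark the states are shown because each is a known target of RUNX2, the factor that every chosen cell had to express. The 250 bases before the start of each gene are given 5′ to 3′ on the strand of the gene (RefSeq, GRCm38.p6), in lower case with the RUNX-type letters TGTGGT, or their complement ACCACA, in capitals, extended to TGTGGTT or AACCACA where the 7 letters are present.
Bglap, chr3:88384467-88384716, minus strand: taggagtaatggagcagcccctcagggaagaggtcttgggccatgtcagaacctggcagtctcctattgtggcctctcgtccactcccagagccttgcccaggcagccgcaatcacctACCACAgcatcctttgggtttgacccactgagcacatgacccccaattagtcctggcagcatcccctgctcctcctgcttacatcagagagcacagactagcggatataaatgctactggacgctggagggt
Mmp13, chr9:7272264-7272513, plus strand: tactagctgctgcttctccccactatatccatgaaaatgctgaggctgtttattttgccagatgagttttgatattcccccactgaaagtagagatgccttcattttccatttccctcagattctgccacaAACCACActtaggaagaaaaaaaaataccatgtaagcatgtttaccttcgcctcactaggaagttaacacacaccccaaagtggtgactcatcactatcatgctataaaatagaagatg
Spp1, chr5:104434861-104435110, plus strand: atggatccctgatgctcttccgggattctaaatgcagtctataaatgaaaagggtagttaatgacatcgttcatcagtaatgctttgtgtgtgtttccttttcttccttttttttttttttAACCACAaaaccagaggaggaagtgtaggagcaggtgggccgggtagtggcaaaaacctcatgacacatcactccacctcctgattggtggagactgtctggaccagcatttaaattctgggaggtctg
Each window held 1 match, which began 132 bases before the start of Bglap, 119 before Mmp13 and 129 before Spp1. Searched on both strands, the 7 letters occurred in 1373 of 27025 promoters of the same length (5.08%) and the 6 letters in 15.9%. Among genes that differed between the states and had a promoter in the table, the 7 letters were found in 7 of 131 genes higher in mature cells (5.34%) and in 7 of 187 lower ones (3.74%), against 62 of 1633 genes tested (3.797%). The match was thus found in genes of both states, at shares near those of all genes tested.

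Of the markers Runx2, Mmp13, Tnc and Col1a1 given for the lineage, the rule used all but Mmp13. Mmp13 was at 6795 CPM in immature and 100.3 CPM in mature cells, against 48.5 CPM in chondrocytes with more than 2 UMIs of Acan. Sp7, an osteoblast transcription factor added to these markers, was at 124, 178 and 27.6 CPM in the same order. It was found in 25 of 25 mature cells (lower limit of the 95% exact interval 86.3%) and in 18 of 29 immature cells (62.1%, 42.3-79.3%), against 48.2% of Runx2-positive chondrocytes and 48.9% of Cxcl12-abundant stromal cells. Median depth was 33278 UMIs in mature, 9006 in immature, 17635 in chondrocytic and 11488 in stromal cells. Intervals here and below cover counting error only. Tnc and Mmp13 marked the immature cells but not these alone. Tnc was found in 28 of 29 immature cells and in 87 of 88 Cxcl12-abundant stromal cells, and Mmp13 in 24 of 29 and in 60 of 88. Bglap transcripts were also found outside the lineage, in 23.1% of Runx2-positive chondrocytes (222 CPM). It was found in 0 of 87 Ptprc-positive cells (median depth 9174 UMIs), where up to 4.15% of cells could hold a UMI (upper limit of the exact interval), which does not limit the share that express the gene. The part of free RNA in such low counts was not tested.

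Markers of other cell types were counted in the same cells. Hematopoietic markers came to 3 UMIs in mature and 3 in immature cells, endothelial markers to 3 and 2, and the mural genes Acta2, Tagln, Myh11 and Rgs5 were at 0 in both. Of the 11 chondrocyte markers, Sox9 and Col9a2 were at 0 in mature cells and Col9a1, Col9a2 and Col9a3 at 0 in immature cells. The list summed to 3329 CPM in mature and 970 CPM in immature cells, and Col11a2 made 2181 of its 3186 UMIs in mature cells. Col2a1, the main collagen chain of cartilage, had 903 UMIs (943 CPM) in mature and 228 UMIs (591 CPM) in immature cells, and the part of chondrocyte RNA in these values was not tested. Cxcl12-abundant stromal markers summed to 85.7 CPM in mature cells, with Adipoq at 0, and to 783 CPM in immature cells. These sums include Cxcl12 (21 UMIs in mature and 80 in immature cells), which the rule held below 10 UMIs a cell. The chondrocyte list likewise includes Acan (4 and 3 UMIs), so both sums were in part limited by the rule. Osteocyte markers were partial, with Sost at 0 in both states, Mepe in 2 cells and Phex the leading gene in mature cells.

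Some cells lay close to the gates that chose the lineage. Of 148 cells that met the Runx2 and matrix gates with Ptprc and Cdh5 at 0, Cxcl12 left out 85, Acan 6 and both 3. Of the 54 kept, 21 met the Slit2, Tnc and Postn gate alone, 3 the Col1a1 gate alone and 30 both. The cells nearest the mature gate held 45 and 49 UMIs of Bglap and Bglap2 outside it, and 53 and 58 inside it. Among the rest, 9 immature cells had none at all, and 13 mature cells had 1000 or more, up to 15566. For Col1a1 the values nearest its gate were 94 and 226 UMIs.

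**Figure D1:**
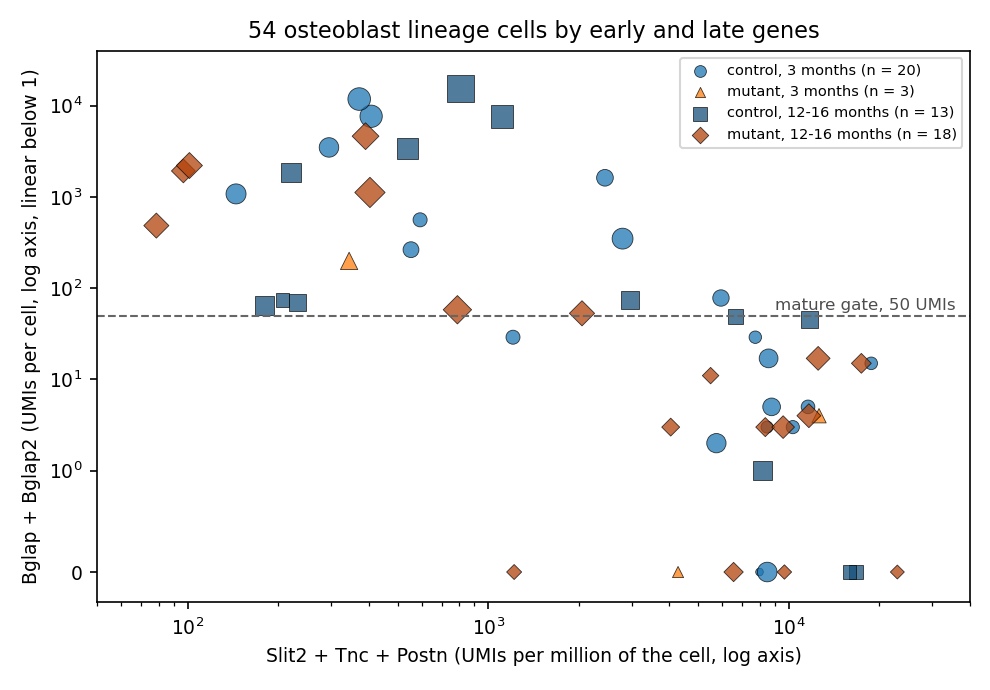
Each point is 1 of the 54 lineage cells, by the summed level of Slit2, Tnc and Postn (CPM of the cell, log axis) and by the UMIs of Bglap and Bglap2 (log axis, linear below 1), with colour and shape for the library, point size rising with the depth of the cell and a dashed line at the mature gate of 50 UMIs. The 25 mature cells lie above the line, mostly at low levels of the early genes, and no mature cell lies above the median immature cell on the horizontal axis.

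Cells of each state varied widely. Col1a1, the main collagen chain of bone, ran from 2732 to 227310 CPM over mature cells with a median of 131700, and from 0 to 196030 over immature cells with a median of 3746. The ranges overlapped, and 3 mature cells exceeded the highest immature cell. The early genes Slit2, Tnc and Postn together ran from 78.7 to 5947 CPM in mature cells (median 404) and from 1209 to 22970 in immature cells (median 8566), and 5 mature cells lay above the lowest immature cell but none above the immature median. Mmp13, the collagenase MMP13, had no UMI in 19 of 25 mature cells and ran up to 1974 CPM in the others, whereas its median in immature cells was 6166 CPM and its highest value 14565. Thinned to 750 UMIs a cell, Mmp13 was found in 79.3% of immature and 4.0% of mature cells, so the states differed in detection at equal depth too. Spp1, which encodes osteopontin, had a median of 2018 CPM in mature and 15610 CPM in immature cells, and 24 of 29 immature cells lay above the mature median. In all, 9 immature cells had reached 100 UMIs of Col1a1 without reaching the mature gate.

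The states also differed in how much of their RNA went to a few genes. Col1a1, Col1a2, Bglap, Bglap2 and Sparc together took 30.5%, 31.7%, 38.2% and 27.2% of the UMIs of mature cells, and 3.37%, 2.83%, 4.34% and 1.34% of those of immature cells. All 4 libraries showed the gap, and 3 of these 5 genes were used by the gates. Over all immature cells Spp1 took 5.14% of UMIs, Col1a1 1.62%, Ibsp 1.08%, Col1a2 0.887%, Mmp13 0.680% and Tnc 0.572%, beside 1.62% for Gm42418 and 1.41% for the noncoding Malat1. Spp1 was the most abundant gene of immature cells in the 3-month control and the 12-16-month mutant library, but not in the 12-16-month control, and was not among the 10 most abundant in the 3-month mutant library. Bglap outnumbered Bglap2 in mature cells by 2.00, 2.69, 2.34 and 3.12 to 1, but these near-identical copies can share reads and their ratio is uncertain. Of the other genes of the rule, Runx2 was at 3349, 5067, 5278 and 3917 CPM in immature cells and at 701, 344, 1240 and 1376 CPM in mature cells. The states did not overlap over libraries for Runx2, but at least 1 UMI of Runx2 was required of cells of unequal depth, so these levels are set in part by the rule.

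Mature cells carried more RNA of Col1a2, Sparc and Cthrc1, which encode a collagen chain and secreted matrix proteins, and immature cells more of the collagenase gene Mmp13, the receptor gene Pdgfrb and the growth factor gene Csf1. Counts were summed per library and state and compared with edgeR's quasi-likelihood test with the library as a block and Benjamini-Hochberg adjustment (false discovery rate, FDR, 0.05). Of 2078 genes tested outside the rule, 175 (8.42%) were higher and 248 (11.9%) were lower in mature cells, and the median log2 fold change was 0.05. For 557 genes (26.8%) the 4 mature values did not overlap the 4 immature ones. Because the states were cut from counts of the same cells, the test shows which other genes went along with the osteocalcin gate, and the median depth of 33278 against 9006 UMIs went along with it too. The lineage gates also split the states in part. Col1a1 reached 100 UMIs in 24 of 25 mature and 9 of 29 immature cells, and the other cells were chosen by Slit2, Tnc and Postn. With both states held to 100 UMIs of Col1a1, on fewer cells, 66 genes were higher and 43 lower. The 4 libraries are 4 conditions and not replicates of one. Without the 3-month mutant library, whose only mature cell was called a doublet, 362 genes were higher and 362 lower. There were 66 and 237 without the 3-month control, 67 and 127 without the 12-16-month control and 62 and 198 without the 12-16-month mutant library. With every cell thinned to 750 UMIs, 42 genes remained in the fit, of which 2 were higher and 8 lower.

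**Figure D2:**
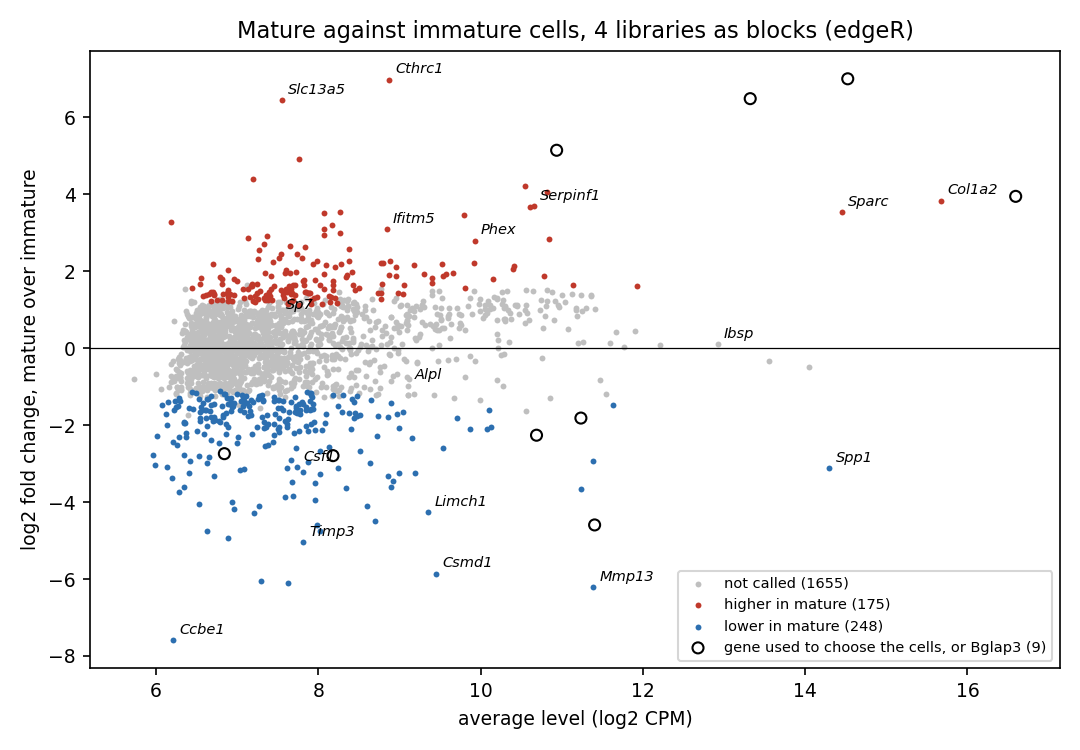
Each point is a gene, by its average level (log2 CPM) and its log2 fold change in mature over immature cells from edgeR with 4 libraries as blocks, with the 175 higher genes in red, the 248 lower genes in blue, genes not called in grey and genes of the rule as open circles. Cthrc1 and Slc13a5 lie highest and Ccbe1 and Mmp13 lowest among called genes, while Spp1 is both abundant and lower.

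Among genes higher in mature cells, Cthrc1 had the largest log2 fold change. Cthrc1, a secreted collagen triple helix repeat protein (ENSMUSG00000054196, chr15:39076932-39087121, GRCm38), was at 5.66, 0, 0 and 18.8 CPM in immature cells and at 834, 344, 485 and 1086 CPM in mature cells. The states did not overlap, and Cthrc1 was higher in mature cells of all 4 libraries (log2 fold change 6.98, SE 0.71, edgeR FDR 3.7e-06). Slc13a5, a citrate transporter, rested on 1 UMI in immature and 248 UMIs in mature cells, a CPM ratio of 99.9 with a counting interval of 17.8 to 3962 (edgeR FDR 1.5e-05). Col1a2, the partner chain of Col1a1 in type I collagen (ENSMUSG00000029661, chr6:4504814-4541544), rose from 9414, 8467, 13739 and 4011 CPM to 74379, 80904, 89494 and 74549 CPM (log2 fold change 3.84, SE 0.33, edgeR FDR 3.3e-07). Mature values of Col1a2 lay within a narrow band and all above the highest immature value. Sparc, the collagen-binding glycoprotein osteonectin (ENSMUSG00000018593, chr11:55394500-55423183), was at 4928, 4467, 4499 and 3259 CPM in immature cells and at 38452, 35393, 30465 and 31934 CPM in mature cells (log2 fold change 3.55, SE 0.35, edgeR FDR 2.9e-06). Serpinf1, which encodes PEDF, a secreted protein whose loss causes a form of brittle bone disease, was at 311, 533, 321 and 93.9 CPM in immature cells and at 3151, 1981, 2129 and 2289 CPM in mature cells (log2 fold change 3.69, SE 0.56, edgeR FDR 1.8e-04). The other genes of the leading 12 were Cpz, Entpd3, Col11a2, Col11a1, Col24a1, Cgref1 and Car3, with log2 fold changes from 4.93 for Cpz to 3.45 for Car3.

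Mmp13, Timp3 and Col6a3 were among the genes lower in mature cells. Mmp13 (ENSMUSG00000050578, chr9:7272514-7283331) was at 8215, 4867, 4041 and 6970 CPM in immature cells and at 127, 0, 2.64 and 234 CPM in mature cells. The states lay far apart in every library (log2 fold change -6.21, SE 0.78, edgeR FDR 3.5e-05), and the sums were 2620 UMIs in immature against 96 UMIs in mature cells. Timp3, an inhibitor of metalloproteinases bound to the matrix, was at 837, 200, 240 and 432 CPM in immature cells and at 27.8, 0, 2.64 and 4.33 CPM in mature cells (log2 fold change -5.03, SE 0.53, edgeR FDR 5.7e-06). A protease and a protease inhibitor were thus lower together in mature cells. Col6a3, a chain of the microfibrillar type VI collagen, was at 470, 267, 412 and 930 CPM in immature cells and at 30.9, 0, 0 and 21.6 CPM in mature cells (log2 fold change -4.75, SE 0.59, edgeR FDR 2.9e-05). Ccbe1, a secreted matrix protein of lymphatic growth, had 57 UMIs in immature cells and 0 in mature cells, at least 47.2-fold lower when 3 counts over the group stand for 0. The other genes of the lowest 12 were Cpa6, Rad51b, Csmd1, Rcan2, Gdpd2, Olfml2b, Col8a1 and Limch1, with log2 fold changes from -6.11 for Cpa6 to -4.27 for Limch1. Of these 12, Col8a1 had states that overlapped over libraries, at 66.7 to 2367 CPM in immature and 0 to 92.7 CPM in mature cells. All 24 genes named here for both directions kept their direction and an FDR below 0.05 in the 321 values from 15 alternatives in which they were tested.

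**Figure D3:**
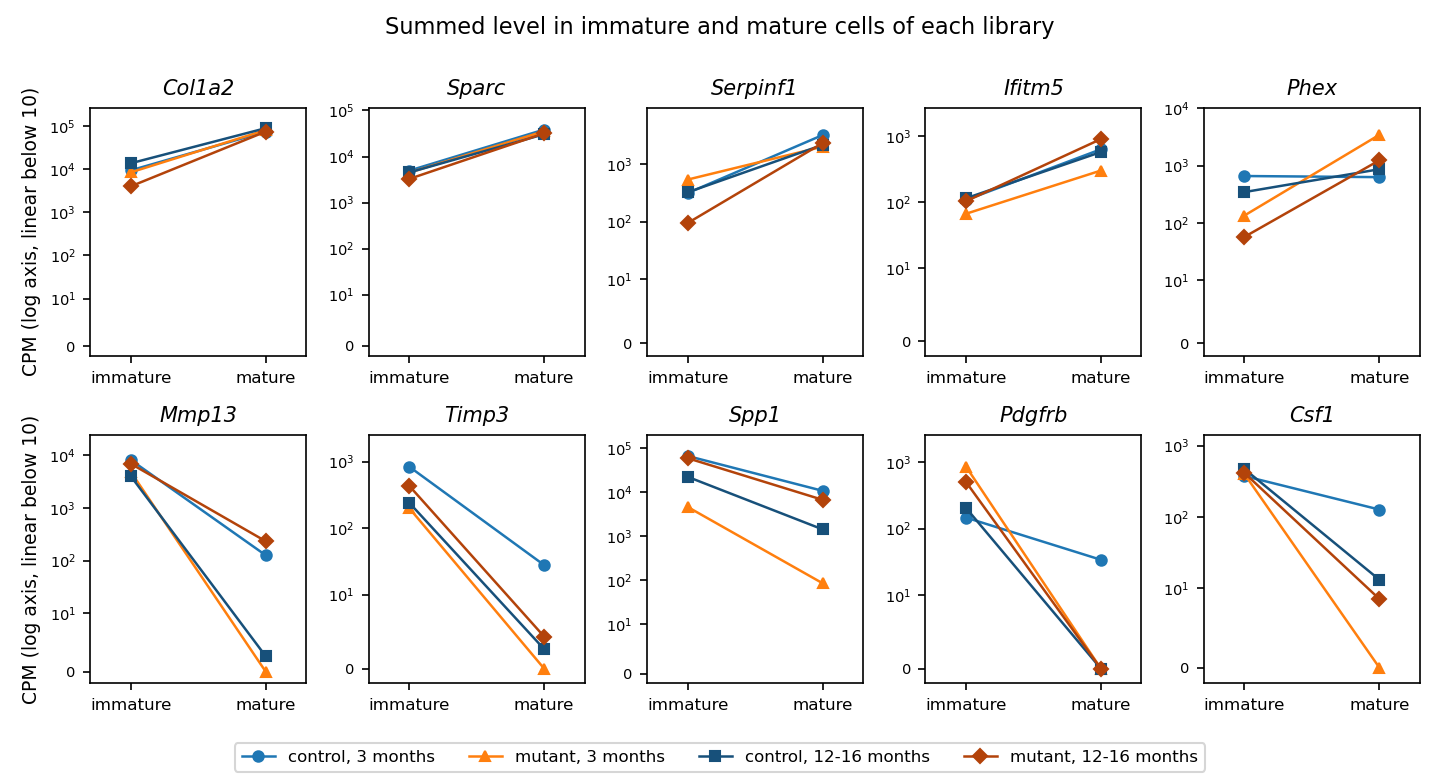
Summed level (CPM, log axis, linear below 10) of 10 genes in immature and mature cells, with a line for each of the 4 libraries. The lines of the matrix genes Col1a2, Sparc, Serpinf1 and Ifitm5 run up and those of Mmp13, Timp3, Spp1, Pdgfrb and Csf1 run down in all 4 libraries, while Phex runs up in 3.

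Most of the tested bone matrix genes were higher in mature cells. Of its 18 members outside the rule, 13 were tested, 8 were higher (Col1a2, Col5a2, Col11a1, Col11a2, Col24a1, Sparc, Dcn and Ifitm5) and 1 was lower (Spp1), against 8.42% higher and 11.9% lower over all genes tested, with a median log2 fold change of 3.09 against 0.05. All 9 calls held without each library. Col11a2 is also in the list of chondrocyte markers given above, and the part of chondrocyte RNA in its level was not tested. Between the whole lineage and Runx2-positive chondrocytes, Col11a1, Col11a2, Sparc and Dcn did not pass the test. Ifitm5, an osteoblast membrane protein of mineralizing cells, was at 108, 66.7, 114 and 103 CPM in immature cells and at 633, 301, 575 and 904 CPM in mature cells (log2 fold change 3.09, SE 0.48, edgeR FDR 2.2e-04). Its lowest mature value lay above its highest immature value. Spp1 (ENSMUSG00000029304, chr5:104435118-104441050) was at 65555, 4600, 22142 and 58499 CPM in immature cells and at 10668, 86.1, 1430 and 6673 CPM in mature cells (log2 fold change -3.11, SE 0.42, edgeR FDR 6.0e-05). It was lower in the mature cells of each library, yet the states overlapped across libraries, since the 3-month mutant immature cells held less than the 3-month control mature cells. The phosphoproteins Ibsp (log2 fold change 0.11, edgeR FDR 0.896) and Dmp1 (-0.42, edgeR FDR 0.562) of the same SIBLING family did not pass the test, nor did Col5a1 and Bgn.

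The transcription factors and the machinery that folds collagen gave smaller values. Of 16 osteogenic transcription factors outside the rule, 7 were tested and Twist1 and Creb3l1 were higher in mature cells (8.42% of all tested genes were), with a list median of 0.86. Both calls were lost without the 3-month control, the 12-16-month control or the 12-16-month mutant library, at FDRs from 0.0676 to 0.227 for Twist1 and from 0.0963 to 0.307 for Creb3l1. Sp7 did not pass the test (log2 fold change 0.86, edgeR FDR 0.122). Of 27 genes for collagen folding, crosslinking and secretion, 19 were tested, 7 were higher (P4ha1, Crtap, Serpinh1, Lox, Sec24d, Kdelr3 and Sec61b) and 0 were lower, with a median of 0.97. Serpinh1, the collagen chaperone HSP47, was at 984, 600, 790 and 939 CPM in immature cells and at 2923, 1120, 1691 and 3107 CPM in mature cells (log2 fold change 1.88, edgeR FDR 0.0106). The call of Serpinh1 was lost without each of the same 3 libraries, at FDRs of 0.0979 to 0.112. So were those of Crtap (0.119 to 0.209), Lox (0.0854 to 0.205) and Sec24d (0.189 to 0.247). P4ha1 was lost without the 12-16-month mutant library (0.0987), and Sec61b without it (0.0638) or without the 12-16-month control (0.0508). Of these 7 genes, Kdelr3 kept its call without each library in which it was tested.

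Mineralization genes moved both ways. Of 12 mineralization and phosphate genes, 6 were tested, Phex and Slc8a3 were higher and Ank and Fam20c lower (8.42% and 11.9% over all genes tested), with a list median of -0.20. Phex, an endopeptidase of phosphate balance, was at 656, 133, 343 and 56.4 CPM in immature cells and at 627, 3445, 862 and 1233 CPM in mature cells (log2 fold change 2.80, SE 0.76, edgeR FDR 0.0144). The 3-month mutant mature value was 1 cell, and 1 mature cell of the 12-16-month mutant library held 244 UMIs of Phex. The 3-month control library did not share the direction, and the FDR was 0.108 without the 12-16-month mutant library. Without that library the FDR was 0.244 for Slc8a3, 0.190 for Ank and 0.0904 for Fam20c. It was 0.0992 for Slc8a3 without the 3-month control and 0.186 for Ank without the 12-16-month control library. Alpl, the alkaline phosphatase of mineralization, did not pass the test (log2 fold change -0.97, edgeR FDR 0.174). Of 16 osteocyte genes, 5 were tested and Phex and Irx5 were higher, with a median of 1.07.

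Several early lineage genes, receptors and signals were lower in mature cells. Of 19 periosteal and early osteoblast genes outside the rule, 14 were tested, 5 were lower (Mmp13, Pdgfrb, Ncam1, Limch1 and Ptch1) and 1 was higher (Ctsk), against 11.9% and 8.42% over all genes tested, with a median of -1.02. Pdgfrb, a receptor for platelet-derived growth factor found on progenitors, was at 147, 867, 206 and 507 CPM in immature cells and at 34.0, 0, 0 and 0 CPM in mature cells (log2 fold change -4.11, SE 0.72, edgeR FDR 6.1e-04). Mature Pdgfrb UMIs thus came from the 3-month control library alone. Ctsk, better known as the collagenolytic protease of osteoclasts, was higher (log2 fold change 1.98, edgeR FDR 0.00639) and its call was lost without the 3-month control (FDR 0.0943) or the 12-16-month mutant library (0.0547). Of the other osteoclast markers, Mmp9, Oscar and Calcr were at 0 in mature cells, Acp5 (TRAP) had 9 UMIs in mature and 0 in immature cells and Ocstamp had 1 UMI in mature cells, and the part of osteoclast RNA in the level of Ctsk was not tested. Without the 12-16-month control library the FDR was 0.0541 for Ncam1 and 0.0658 for Fgfr2. Of 10 tested growth factor receptors and binding proteins, Tgfbr3, Igfbp4 and Fgfr2 were lower and 0 were higher, with a median of -0.98. Of 6 osteoclast control signals only Csf1, the growth factor of osteoclast precursors, could be tested. Csf1 was at 373, 400, 469 and 413 CPM in immature cells and at 127, 0, 13.2 and 8.66 CPM in mature cells (log2 fold change -3.09, SE 0.60, edgeR FDR 0.00133). Its immature values were close to each other and all above the mature ones.

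The RAS and ERK list had 6 tested members, of which 1 was lower (11.9% of all tested genes were) and 0 were higher, with a median of -0.98. A share of 1 in 6 is near that of all genes and is no result about the list. The lower member was Nf1 itself (ENSMUSG00000020716, chr11:79339693-79581612), at 158, 533, 401 and 216 CPM in immature cells and at 86.5, 0, 76.5 and 86.6 CPM in mature cells (log2 fold change -1.28, SE 0.44, edgeR FDR 0.0446). The FDR was 0.289 without the 12-16-month control, 0.0637 without the 12-16-month mutant and 0.0520 without the 3-month mutant library. No member of the proliferation list was tested, and none of the 6 tested dissociation stress genes passed, with a median of 0.81. Of the 34 list genes called in this comparison, 18 kept their call without each library in which they were tested.

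**Figure D4:**
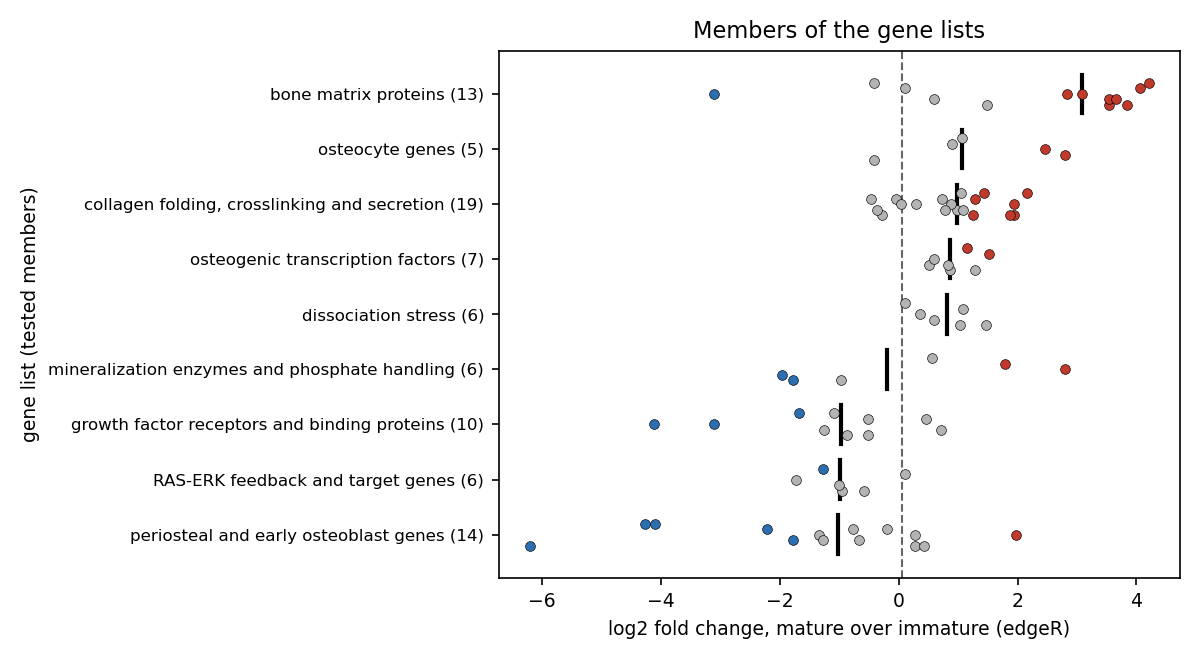
Log2 fold change of each tested list member in mature over immature cells (points; red higher, blue lower, grey not called), with a bar at the median of the list and a dashed line at the median of all genes, 0.05. Among the lists with 5 or more tested members shown here, the bone matrix list has the highest median, 3.09, and the periosteal and early list the lowest, -1.02.

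Against other skeletal cells of the same libraries, the lineage differed in many genes. Runx2-positive chondrocytes (398 cells with more than 2 UMIs of Acan) were likewise chosen by Runx2 and served as the first comparison. Of 7109 genes tested with edgeR, 882 (12.4%) were higher and 1195 (16.8%) lower in lineage cells. Insc, an adaptor of the cell polarity machinery, was at 154, 183, 182 and 175 CPM in lineage cells and at 0 in the chondrocytes of every library, at least 432-fold higher. Entpd3, an ectonucleotidase, was at least 330-fold higher, and Ptprz1, Ccdc194, Cpz and Car3 followed. Col1a2 (log2 fold change 8.71), Ifitm5 (9.35) and Dmp1 (7.73) were also higher, whereas Sp7 differed less (1.55), all with an edgeR FDR below 0.05. Their lists were mixed. Of 17 bone matrix genes tested, 8 were higher and 4 (Omd, Ogn, Fbln7 and Chad) lower, with a median of 0.65. Of 13 osteogenic transcription factors tested, 8 were higher and 3 (Lef1, Zbtb16 and Id1) lower, with a median of 1.19. Without each library, 10 of the 12 calls and 9 of the 11 calls held. On the other side Col9a2, a chain of cartilage collagen IX, had 0 UMIs in lineage cells and 14271 in chondrocytes, and Fxyd2, Scrg1, Lgals3, Serpina1d and F13a1 were likewise at 0 in the lineage cells of all 4 libraries. The dissociation stress list, which holds immediate early genes, had 14 of 16 members lower and 0 higher in lineage cells, with a median of -2.66 against -0.06 over all genes tested, and Atf3 lost its call without the 3-month mutant library (FDR 0.0664). With the mature cells left out, 559 of 6021 genes (9.28%) were higher and 808 (13.4%) lower in immature cells. The bone matrix list then had 7 of 17 tested members higher and 7 lower, with Sparc among the lower.

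Against Cxcl12-abundant stromal cells (88 cells), whose gate separates them from the lineage by Cxcl12 counts, 398 of 4847 genes (8.21%) were higher and 515 (10.6%) lower in lineage cells. Cpz, a matrix carboxypeptidase, was at 220, 52.3, 229 and 264 CPM in lineage cells and at 0 in stromal cells, at least 80.2-fold higher, and Slc13a5 at least 64.8-fold higher. Cthrc1, Col11a2, Cgref1 and Lipc completed the highest 6. The fat hormone gene Adipoq had 1 UMI in lineage and 850 UMIs in stromal cells, and Mgst1, Il1rn, Chrdl1, Igfbp3 and C3 were the other lowest genes. The count of higher genes was 658 without the 3-month mutant library, 213 without the 12-16-month control, 220 without the 12-16-month mutant and 229 without the 3-month control library. The count of lower genes was 300 without either of the 12-16-month libraries.

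Immature cells alone differed from stromal cells in fewer genes, on fewer cells and fewer genes tested, and the difference between the fits was not tested. With the mature cells left out, 47 of 3157 genes (1.49%) were higher and 129 (4.09%) lower in immature cells. Mmp13, at 8215, 4867, 4041 and 6970 CPM in immature cells, was at 6618, 4028, 4854 and 3563 CPM in stromal cells, and the groups overlapped (log2 fold change 0.31, edgeR FDR 0.869). Tnc, a gene of the rule, was at 4871, 7000, 6606 and 6237 CPM against 5110, 5717, 6147 and 5402 CPM. Spp1 (edgeR FDR 0.297) and Sp7 (FDR 0.844) did not pass the test either. Of the 12 bone matrix genes tested, 4 were higher in immature cells (Col1a2, Col5a1, Dmp1 and Ifitm5), 1 was lower (Ogn) and 7 did not pass. The cartilage collagen gene Col2a1 was higher too (log2 fold change 1.77, edgeR FDR 0.0210), at 339, 200, 504 and 1136 CPM in immature and 190.0, 214, 88.6 and 151 CPM in stromal cells, and the part of chondrocyte RNA was not tested. Dmp1, a matrix phosphoprotein best known from osteocytes, was at 917, 133, 206 and 282 CPM in immature and at 24.3, 0, 53.1 and 50.3 CPM in stromal cells (log2 fold change 3.39, SE 0.55, edgeR FDR 1.2e-04). Ifitm5 was at 108, 66.7, 114 and 103 CPM against 16.2, 0, 11.8 and 18.1 CPM (log2 fold change 2.88, SE 0.52). Neither gene overlapped between the groups, but some immature values rested on few counts. In the 3-month control library 1 immature cell held 108 of the 162 UMIs of Dmp1. The 3-month mutant values were 2 UMIs of Dmp1 and 1 UMI of Ifitm5. Igf1, an osteoblast growth factor, was at 0 in the immature cells of all 4 libraries and at 291, 125, 88.6 and 262 CPM in stromal cells, and Igfbp5, a binding protein of insulin-like growth factors, was lower as well, at 39.6, 733, 126 and 582 CPM against 2503, 3386, 3378 and 5814 CPM. Other markers of Cxcl12-abundant stroma, namely Lepr, Kitl, Hp, Ebf3 and Adipoq, were lower in immature cells, on cells split by Cxcl12, while Foxc1 did not pass (edgeR FDR 0.215).

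The share of lineage cells ranged widely over the libraries. It was 2.79% of 717 passing cells in the 3-month control library (95% Clopper-Pearson interval 1.71-4.28%), 0.620% of 484 in the 3-month mutant (0.128-1.80%), 9.63% of 135 in the 12-16-month control (5.23-15.9%) and 4.28% of 421 in the 12-16-month mutant library (2.55-6.67%). Both mutant shares lay below the control share of their age, with intervals that overlapped, at 3 months by little. With doublets left out the 3-month shares were 2.82% (1.73-4.32%) and 0.417% (0.0505-1.497%), whose intervals did not overlap. Over all deposited barcodes the shares were 3.90% in the control (2.75-5.36%) and 0.554% in the mutant library (0.114-1.61%) at 3 months, whose intervals did not overlap, and 9.82% and 9.54% at 12-16 months. With 1 library for each condition, no test of genotype or age was made, and fewer lineage cells cannot be told apart from more of the other cells that the sort kept. Mature cells were 9 of 20 lineage cells (45.0%, 23.1-68.5%), 1 of 3 (33.3%, 0.840-90.6%), 8 of 13 (61.5%, 31.6-86.1%) and 7 of 18 (38.9%, 17.3-64.3%). These intervals overlapped, and they cover the counting of cells within 1 library only, not the spread between mice. Over all deposited barcodes, with no filter on depth or mitochondrial share (chosen after seeing the data), the mature share at 12-16 months was 62.5% in the control (35.4-84.8%) and 17.3% in the mutant library (8.23-30.3%), and the intervals did not overlap. The mature gate is a raw count, however. The 34 lineage cells so added in the mutant library had a median of 2700.5 UMIs, against 11709 for the 3 added in the control. The part of depth in this gap was not tested. In the 12-16-month control library, 4 of the 8 mature cells held fewer than 100 UMIs of Bglap and Bglap2, below the stricter gate that left 30.8% mature there.

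**Figure D5:**
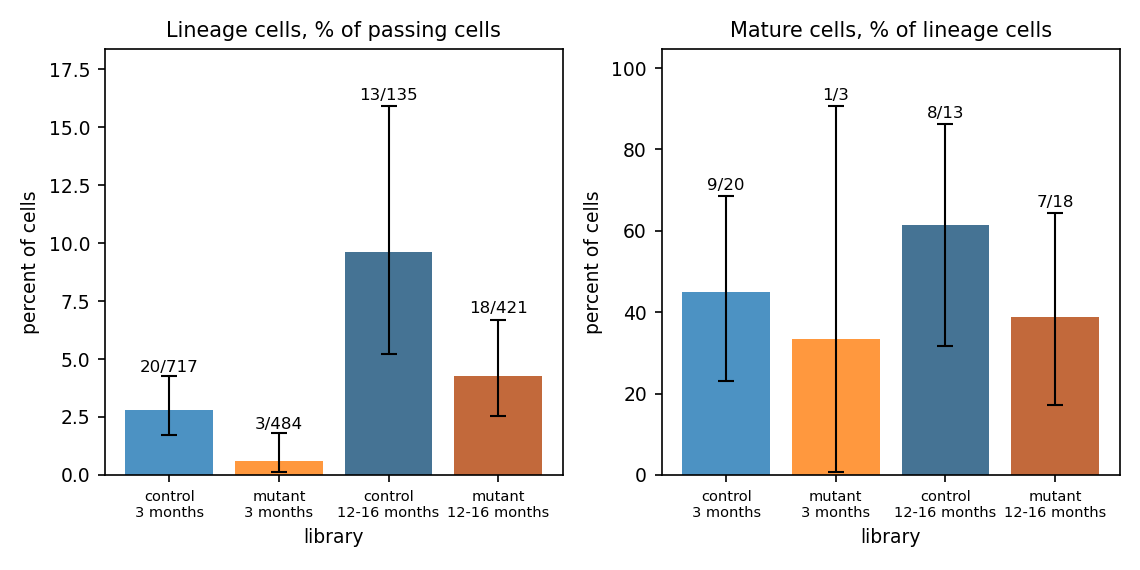
Left, lineage cells as a percent of passing cells, and right, mature cells as a percent of lineage cells, in each library, with 95% Clopper-Pearson intervals and the numbers of cells above the bars. The intervals on the right overlap in all 4 libraries.

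Immature cells of mutant and control libraries were set side by side at each age without a test, since each condition was 1 library. Ratios of CPM have exact binomial intervals for counting error, which leave out the differences between mice and cells. Nf1 was at 158 and 533 CPM in control and mutant immature cells at 3 months (28 and 8 UMIs) and at 401 and 216 CPM at 12-16 months (35 and 23 UMIs). The 3′ counts need not cover the deleted part of Nf1, so these values check nothing about the labels. Of 543 genes that reached 100 UMIs in the immature cells of all 4 libraries together, 116 (21.4%) were more than 2-fold higher and 208 (38.3%) more than 2-fold lower in the library labelled mutant at 3 months, where it held 2 immature cells and 15000 UMIs. The 3-month control gave 176752 of the 385561 UMIs behind the minimum, so genes high in it passed more readily than genes high in the 3-month mutant, and the excess of lower genes is not a result about the genotype. At 12-16 months, 64 (11.8%) were higher and 57 (10.5%) lower. The median log2 ratio was -0.51 at 3 months and 0.17 at 12-16 months.

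Several immediate early genes were lower in immature cells of the libraries labelled mutant at both ages, but not all of them. Of the 5 dissociation stress genes with at least 100 UMIs, 5 were more than 2-fold lower at 3 months (38.3% of all genes were). At 12-16 months 4 were lower (10.5% of all genes were) and 1, Jun, was higher (11.8%). Among genes under that minimum, Junb, Socs3 and Klf6 were higher in the mutant at 12-16 months, and Ier2 and Zfp36 were lower. Fos had 0 of 15000 and 0 of 106464 UMIs in the mutant immature cells, and 242 of 176752 and 21 of 87345 UMIs in the controls, a ratio of at most 0.146 at 3 months and at most 0.117 at 12-16 months. Ranked by the smaller of their changes at the 2 ages, Jund, Fosb and Egr1 were also among the 5 lowest genes. Jun had 0 UMIs in mutant and 344 in control cells at 3 months, but 30 and 5 UMIs at 12-16 months (282 and 57.2 CPM, ratio 4.92, 1.89-16.2). These genes reached 100 UMIs largely through the 3-month control library, where they were high, so their low ratios at 3 months were in part set by that minimum. In mature cells Fos was at 2190, 0, 293 and 86.6 CPM, in the same order of control above mutant at each age. In Runx2-positive chondrocytes of the same libraries it was at 4364, 2047, 2759 and 2298 CPM, and in stromal cells at 433, 384, 260 and 262 CPM, where the 12-16-month values lay together. The stromal cells did not share the direction for the others, with Egr1 at 267, 605, 372 and 376 CPM, Fosb at 247, 487, 189 and 189 CPM and Jund at 501, 686, 331 and 556 CPM. These genes are known to respond to the handling of tissue, and the part of dissociation in their levels was not tested.

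Phex was at 656 CPM in control and 133 CPM in mutant immature cells at 3 months (ratio 0.203, interval 0.0243-0.751) and at 343 and 56.4 CPM at 12-16 months (0.164, 0.0558-0.401). At 3 months 1 control cell held 92 of the 116 UMIs of Phex, and without it the ratio was 0.927 (0.106-3.73). Over the 4 libraries immature cells held 116, 2, 30 and 6 UMIs of Phex. The gene thus reached the minimum of UMIs for ranked genes largely through the 3-month control library, where it was high. Its low ratio at 3 months was in part set by that minimum. While the ratio was below 1 at both ages in immature cells, Phex in mature cells was at 627, 3445, 862 and 1233 CPM and higher in both mutant libraries. Single cells carried these mutant values. The 3-month value came from 1 cell with 80 UMIs of Phex, which was called a doublet. In the 12-16-month mutant library 1 mature cell held 244 UMIs of Phex, and the next highest held 12. Pdgfrb had ratios of 5.89 (2.78-11.9) and 2.46 (1.42-4.46), and Nhs, a regulator of cell shape, ratios of 9.75 (5.43-17.3) and 3.43 (1.75-7.35). At 3 months these rested on 13 UMIs of Pdgfrb and 24 of Nhs from 2 mutant cells. Both genes were picked by rank for large ratios, which the intervals do not allow for. St5, Adarb1 and Igfbp7 were the other genes of the highest 5 by the smaller change of both ages, and for Igfbp7 the 3-month interval of 0.586-7.04 included 1.

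Spp1 and Mmp13 had opposite directions at the 2 ages, a difference that was not tested. Spp1 had a ratio of 0.0702 (0.0546-0.0889) at 3 months and of 2.64 (2.51-2.78) at 12-16 months. Mmp13 turned in the same way, with 0.592 (0.462-0.7497) and 1.72 (1.52-1.96). Col1a1 and Col1a2 had ratios of 0.807 (0.703-0.924) and 0.899 (0.745-1.08) at 3 months, and of 0.231 (0.211-0.253) and 0.292 (0.261-0.326) at 12-16 months. Single cells held a large part of the UMIs behind some of these ratios. In the 3-month control library 1 immature cell of 9927 UMIs held 1946 of the 3313 UMIs of Col1a1 of all 11 immature cells, and without it the ratio was 1.85 (1.60-2.13). In the 12-16-month control library 1 of 5 immature cells held 1162 of 2102 UMIs, and without it the ratio was 0.438 (0.394-0.486). Of the 2 mutant immature cells at 3 months, 1 held 226 of the 227 UMIs of Col1a1, and without it the ratio was 0.0134. For Col1a2 the 3-month ratio was 1.75 without the highest control cell and 0.0535 without the highest mutant cell. The 3-month direction of both genes thus turned without 1 control cell. Without the highest mutant cell both ratios stayed below 1 and lay further from it. At 12-16 months the Col1a2 ratio was 0.426 without the highest control cell and 0.115 without the highest mutant cell. For Spp1 the 12-16-month ratio was 1.38 without the mutant cell that held 3615 of its 6228 UMIs. The 3-month ratio of Spp1 was 0.0384 without the highest mutant cell and 0.0795 without the highest control cell. For Mmp13 at 3 months 1 mutant cell held 68 of 73 UMIs, and without it the ratio was 0.153 (0.0497-0.359). At 12-16 months the Mmp13 ratio was 1.34 without the highest mutant cell. Without the highest control cell it was 0.682 at 3 months and 1.89 at 12-16 months. These values without 1 cell were chosen after seeing the data.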

How the data were processed

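tdTom+ cells from vertebrae of control and mutant mice were measured in 4 10x 3′ libraries, 1 for each genotype and age. The deposited values are UMI counts for each gene in each called cell barcode, which the authors made with Cell Ranger 8.0.0 (file headers) on mm10 with a tdTomato sequence, not normalized or corrected for free RNA. Each matrix lists 32286 genes. The authors' own annotation of cells, SoupX correction and Seurat clustering were not used here. Groups came from the sample labels.

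Cells were filtered and gated on raw UMIs, and Scrublet (scanpy 1.11.5, expected rate 6%) called 25 doublets among passing cells, 1 of them a lineage cell, all kept. UMIs were summed per library and state (Python 3.11.15, numpy 2.4.6, pandas 2.3.3, scipy 1.17.1) and tested with edgeR 4.0.16 in R 4.3.3 (filterByExpr, TMM, glmQLFit and glmQLFTest, library as block, Benjamini-Hochberg, FDR 0.05), which was first tested on simulated data. The library is the unit of the block because both sums come from the same sorted cells. Precision follows depth, from 15000 UMIs for the 3-month mutant immature sum to 379122 for the 12-16-month control mature sum. Ratios between conditions had no test. Where a group had 0 counts, 3 counts over the group stood for it in a bound, and pairs of counts at or under 3 got no fold. Intervals are exact, at 95%.

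Genes named by rank were the 12 highest and 12 lowest log2 fold changes among called genes with the same direction in every library (6 and 6 against other cells), and for genotype the 5 highest and 5 lowest by the smaller absolute log2 ratio of both ages with at least 100 UMIs. Genes of the rule, Bglap3, mitochondrial, ribosomal, hemoglobin, sex-linked and predicted genes were left out. Others are list or marker genes. The members and lists were chosen with earlier results of these data known. Alternatives were DESeq2 1.42.0, RLE factors, no count filter, no library block, other gates, thinning to 750 UMIs, doublets left out and each library left out. Gene coordinates came from the GENCODE annotation of GRCm38 and promoters from RefSeq.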

Additional observations from a re-analysis of the deposited data

Results flagged for a closer look

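Cells that met the lineage gates but failed the cell filters were counted because no comparison used them. They made 6.24% of the 545 barcodes of the 12-16-month mutant library (34 cells, exact interval 4.36-8.61%), against 1.84% of 163 in the 12-16-month control (3 cells), 1.74% of 922 in the 3-month control (16 cells) and 0 of 542 in the 3-month mutant library. Of all barcodes, 121 of 545 in the 12-16-month mutant library had 7% or more mitochondrial counts, against 17 of 163 in the 12-16-month control, 102 of 922 in the 3-month control and 54 of 542 in the 3-month mutant library, and all 34 of these lineage-gated cells were among the 121. In the 12-16-month mutant library these 34 cells had a median of 2700.5 UMIs and 18.9% mitochondrial counts, 17 of them held Mmp13, 14 held 100 or more UMIs of Col1a1 and 2 reached the mature gate. Of all 53 such cells, 9 reached the mature gate. Their median mitochondrial share was 15.5%, against medians of 1.16-2.72% in mature and 2.70-3.65% in immature passing cells over libraries. With them included, as an alternative chosen after seeing the data, the mature share was 17.3% in the 12-16-month mutant and 62.5% in the 12-16-month control library. As the gate is a raw count, depth can enter these shares, and its part was not tested. Their part in the other results, beyond the counts given under the processing, was not tested.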

How the results depend on the processing

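Mature against immature cells gave 175 higher and 248 lower genes. These counts were 324 and 319 with cells at any mitochondrial share and depth (chosen after seeing the data), 374 and 373 with doublets left out, 66 and 43 with both states held to 100 UMIs of Col1a1 (where the median of all genes was 0.47), 2 and 8 with each cell thinned to 750 UMIs (fewer genes tested) and 222 and 456 with no filter on low counts. Leaving out each library gave 62 to 362 higher and 127 to 362 lower genes. Without the library (replicate) block there were 137 and 223, of which 134 and 218 were shared. DESeq2 gave 219 and 241, RLE factors 216 and 264. Of the 175 and 248 called genes, 0 reversed under the alternatives in which they were tested. Each condition has 1 library, and no other paired analysis, such as mutant against control with age as a block, was run.

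Against Runx2-positive chondrocytes (882 and 1195), 559 genes were higher with the mature cells left out and 1973 lower with no filter on low counts, and leaving out each library gave 625 to 992 and 1000 to 1265. Against stromal cells (398 and 515), the counts were 263 and 334 with doublets left out and 47 and 129 with the mature cells left out, and 213 to 658 and 300 to 629 without each library. With the mature cells left out, the log2 fold change against chondrocytes became -0.72 for Col24a1, -0.21 for P3h1, -0.12 for Serpinh1, -0.086 for Sec24d, -0.69 for Kdelr3 and -0.25 for Sec61b. Against stromal cells it became -0.030 for P4ha1, 0.31 for Mmp13, -0.36 for Ctsk and 0.025 for Limch1. The cause was not tested.

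The lineage share of the 12-16-month mutant library was 9.54% over all deposited barcodes, against 9.82% in the control, and 0.554% against 3.90% at 3 months. The mature share was 0% in the 3-month mutant library at a gate of 1% of UMIs and with doublets left out, and 30.8% in the 12-16-month control at a gate of 100 UMIs or of 1%. Mutant against control counts of 2-fold higher and lower genes at 3 months were 276 and 331 with at least 50 UMIs, 40 and 120 with at least 200, and 4 and 3 after thinning. At 12-16 months they were 163 and 134, 22 and 24, and 1 and 5.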

Other observations

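Genes too low for the test still gave values that bear on the states. Tnfsf11, which encodes the osteoclast differentiation factor RANKL, had 33 UMIs in immature and 1 UMI in mature cells. Of the immature UMIs, 23 came from the 3-month control, 2 from the 12-16-month control and 8 from the 12-16-month mutant library. The proliferation genes Mki67 and Top2a had 13 and 26 UMIs in immature and 0 in mature cells. Mki67 was held by 3 of 29 immature cells, and all UMIs of Top2a came from the 3-month control library. Car12, a membrane carbonic anhydrase, had 124 UMIs in mature cells and 0 in immature cells, and 48 of these came from the only mature cell of the 3-month mutant library. The reporter tdTomato had 8 UMIs in mature and 2 in immature cells.

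The control cell with 1946 UMIs of Col1a1 in the 3-month control library had 29 UMIs of Bglap and Bglap2 and 12 of Slit2, Tnc and Postn, and so fell on the immature side of the gate. It also held 108 UMIs of Dmp1 and 92 of Phex, both of the osteocyte list, and 0 of Mmp13, so the name immature describes its osteocalcin count only. A mature cell of the same library, with 18664 UMIs in all, held 78 UMIs of Bglap and Bglap2 beside 111 of the early genes and 51 of Col1a1.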
